A study of Mesocentrotus franciscanus with 18 samples.

Results

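The genes MstnB (SPU_002795) and IgfbpL7 (SPU_028902) were followed over the muscle of Aristotle's lantern (ALM), the esophagus (ES) and the radial nerve (RN) of the red sea urchin *Mesocentrotus franciscanus*. They were chosen because both had more counts in ALM of Large than of Small urchins, and they were found as the 2 features, of 127,110 in all, whose estimated counts in the 6 ALM libraries equalled the counts that defined them. Their size effect in ALM is therefore given as a description without a test, as are their differences between ALM and the other tissues, and only ES and RN were tested. Each gene was held by 1 Trinity grouping, TRINITY_DN59326_c0_g1 for MstnB and TRINITY_DN5109_c0_g1 for IgfbpL7. Whether further groupings of the same genes carried counts in ES or RN is not known, so all levels are those of these groupings.

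RNA-Seq was run on 18 libraries, 3 for each of the groups ALM-L, ALM-S, ES-L, ES-S, RN-L and RN-S, where L stands for Large and S for Small wild-caught urchins and test diameter served the study as a guide to age. A library held RNA pooled from several animals collected in 2010, 2011 or 2013, and the 3 tissues were dissected from the same animals, so the spread between libraries is a spread between yearly pools and not between individual animals. The years of the RN libraries are those of their titles, since another label gives 2010 for all 6 of them. No animal was treated, and the study took one site and the same season in each year.

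Myostatin, the name given to MstnB, is a secreted ligand of the TGF-beta superfamily that in vertebrates is made by skeletal muscle and limits its growth through activin type II receptors and Smad proteins. Proteases of the BMP1/tolloid family free it from its propeptide in mammals, and follistatin family proteins bind related ligands. IgfbpL7 is named after the insulin-like growth factor binding proteins, secreted proteins that in vertebrates bind IGF ligands and change their access to receptors. IGFBP7 in mammals is found in the extracellular matrix and around vessels, and the roles of the urchin proteins were not measured here.

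For MstnB the study designed a primer pair. It is shown here because it names the stretch of transcript by which the gene can be measured apart from these libraries. The study ran quantitative RT-PCR on chosen genes of RN and ALM, MstnB among them. It used RNA of individual urchins from its earliest collection, which had also gone into the pools. For all these genes it reported a significant difference between sizes, with the same trend as in its RNA-Seq. Those measurements were not analysed here. No sequence of IgfbpL7 is given here, and the transcripts themselves were not analysed here.
MstnB forward primer: tcgagggtcgtgcgattc
MstnB reverse primer: cctcatagtgtgcgcgtagaag
The forward primer is 18 bases long with 61.1% G or C, and the reverse primer is 22 bases long with 54.5% G or C.

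The libraries held 7,383,210 to 11,547,218 counts each. Levels are given as CPM, counts relative to the total of the library, scaled over all 18 libraries by the trimmed mean of M-values (TMM), whose factors ran from 0.482 to 0.959 in ALM, from 0.797 to 1.53 in ES and from 0.931 to 1.46 in RN. CPM carry no gene length, so the levels of the 2 genes are not compared with each other. The labelled tissues were checked with lists of marker genes. The 10 linked muscle contractile genes of 12 listed summed to between 24,690 and 61,704 CPM in ALM, and to between 1,707 and 3,452 CPM in ES. The 7 linked synaptic genes of 8 listed summed to between 448 and 497 CPM in RN-L but only to between 53.7 and 66.5 CPM in RN-S, which overlapped ALM-S at 37.0 to 101 CPM. The RN-S libraries also held 15,749 to 41,349 CPM of the muscle list, against 1,675 to 2,238 CPM in RN-L. The genes of the 3 marker lists come from tables that the study chose on the size contrast of RN, ALM or ES. By title the 3 RN-L libraries belong to one series, with a lane tag of their own in the description label, while RN-S 2010 and 2011 belong to another series, and RN-S 2013 to the series of the 12 ALM and ES libraries. Size and library series therefore cannot be told apart in RN, and no series holds both sizes of RN.

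MstnB had few counts in every library. In ALM it had 46, 43 and 43 counts in the Large pools of 2010, 2011 and 2013, against 4, 6 and 8 counts in the Small pools. These counts correspond to 4.28, 6.73 and 4.24 CPM in ALM-L, against 0.877, 0.807 and 0.932 CPM in ALM-S. The groups did not overlap in ALM, which is what the choice of the gene fixed. ALM-L averaged 5.08 ± 1.43 CPM and ALM-S 0.872 ± 0.063 CPM (SD, n = 3 each), and the edgeR fit gave a log2 fold-change of 2.50 with a standard error (SE) of 0.49. In bulk tissue, fewer cells of a type and less RNA per cell cannot be told apart.

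In ES, MstnB had 11, 7 and 26 counts in the Large pools, against 0, 4 and 3 counts in the Small pools. The levels were 1.77, 0.621 and 1.95 CPM in ES-L, against 0, 0.369 and 0.286 CPM in ES-S. Every Large pool was above every Small pool, although the counts of 2011 have exact 95% Poisson intervals that overlap, from 2.81 to 14.4 counts in ES-L and from 1.09 to 10.2 counts in ES-S. The count of 0 in ES-S 2010 has an exact 95% Poisson interval that reaches 3.69 counts, or 0.379 CPM. ES-L averaged 1.45 ± 0.72 CPM and ES-S 0.218 ± 0.194 CPM (SD, n = 3 each), a log2 ratio of 2.73 between the means. MstnB did not reach the count filter in ES, so the main test gave no result for it there. Tested without that filter the log2 fold-change was 2.67 with an adjusted p of 0.137, and in a fit to all 18 libraries it was 2.62 with an adjusted p of 0.335 (edgeR quasi-likelihood, Benjamini-Hochberg). Neither was called, where the fit without the filter called 1.56% of 113,182 features and the fit to 18 libraries 0.101% of 39,511.

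RN gave the highest values of MstnB and, among Large pools, one of the lowest. The counts were 7, 104 and 136 in RN-L 2010, 2011 and 2013, against 12, 16 and 18 in RN-S. In CPM this was 0.722, 9.78 and 9.78 in RN-L, against 1.16, 1.37 and 1.97 in RN-S. The Large pools of 2011 and 2013 lay far above all Small pools, and the Large pool of 2010 lay below all of them. The groups averaged 6.76 ± 5.23 CPM in RN-L and 1.50 ± 0.418 CPM in RN-S (SD, n = 3 each). The fold-change was 2.08 on the log2 scale with SE 0.81, and it did not pass the test (edgeR quasi-likelihood, adjusted p = 0.0998). Of 29,011 features tested in RN 21.7% were called, which required more than a 2-fold change besides an adjusted p under 0.05. Higher in RN-L were 11.4% of the features tested, and lower 10.3%. The call turned on RN-L 2010, since without that library the log2 fold-change was 2.67 with an adjusted p of 0.00499. It also passed without the filter on low counts (2.13, adjusted p = 0.00227) and with DESeq2's Wald test (2.13, adjusted p = 0.0331).

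**Figure D1:**
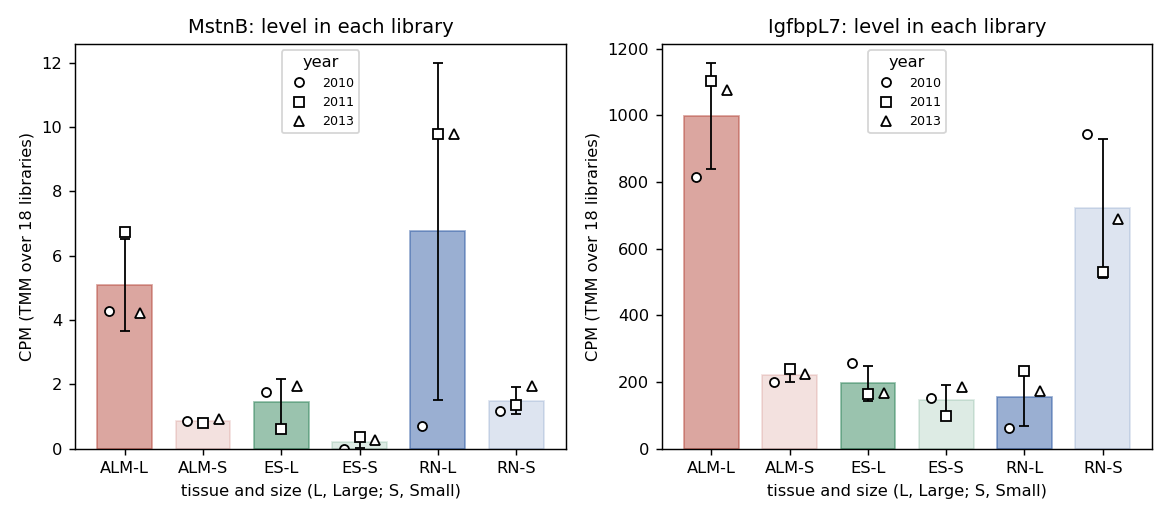
Level of MstnB and IgfbpL7 in each library, in CPM scaled by TMM over 18 libraries, by tissue and size. Bars are means and error bars SD of 3 libraries, and points are the libraries by year. MstnB is higher in 2 of the 3 RN-L pools than in any other library and IgfbpL7 is highest in ALM-L and RN-S.

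The Trinity component of MstnB held a second grouping, TRINITY_DN59326_c0_g2, with few counts. In ALM it had 13, 6 and 9 counts in the Large pools, against 1, 2 and 1 counts in the Small pools. In ES the counts were 3, 8 and 9 in the Large pools, against 0, 1 and 0 in the Small pools. In both tissues this grouping, like MstnB itself, was higher in every Large pool than in any Small pool. In RN it had 8, 4 and 4 counts in the Large pools, against 1, 7 and 8 counts in the Small pools, so the groups overlapped there. When both groupings were summed, an alternative chosen after the data were seen, MstnB passed the count filter in ES with a log2 fold-change of 3.06 and an adjusted p of 0.382. In RN the sum gave 1.75 with an adjusted p of 0.0990 (edgeR quasi-likelihood). Neither result was called.

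IgfbpL7 had 598 to 10,915 counts in a library, so that counting error was small beside the spread between pools. In ALM it had 8,775, 7,050 and 10,915 counts in the Large pools, against 913, 1,781 and 1,927 counts in the Small pools. The levels were 816, 1,104 and 1,075 CPM in ALM-L, against 200.1, 240 and 225 CPM in ALM-S. As fixed by the choice of the gene, these groups did not overlap. ALM-L averaged 998 ± 158 CPM and ALM-S 221 ± 19.95 CPM (SD, n = 3 each), with a fitted log2 fold-change of 2.16 (SE 0.33). Of the 24,482 features tested in ALM 0.00408% were called.

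In ES the levels of IgfbpL7 lay close together. ES-L had 257, 165 and 168 CPM, against 153, 99.3 and 187 CPM in ES-S. The groups overlapped, because the Small pool of 2013 was above the Large pools of 2011 and 2013. ES-L averaged 197 ± 52.4 CPM and ES-S 146 ± 44.0 CPM (SD, n = 3 each). The log2 fold-change of 0.51 (SE 0.35) did not pass the test (edgeR quasi-likelihood, adjusted p = 0.817), in a tissue where 0.00332% of the 30,159 features tested were called.

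In RN the direction was the opposite of that in ALM. The study had already reported lower expression of IgfbpL7 with age in RN from these same libraries. The test here is therefore not independent of that report. IgfbpL7 had 598, 2,468 and 2,424 counts in the Large pools, against 9,759, 6,189 and 6,307 counts in the Small pools. The levels were 61.6, 232 and 174 CPM in RN-L, against 943, 531 and 689 CPM in RN-S. All Large pools lay below all Small pools, and the Large pool of 2010 was the lowest of the 18 libraries. The means were 156 ± 86.6 CPM in RN-L and 721 ± 208 CPM in RN-S (SD, n = 3 each). IgfbpL7 fell by 2.297 on the log2 scale (SE 0.48) in RN-L relative to RN-S and was called (edgeR quasi-likelihood, adjusted p = 0.0137), beside the 10.3% of features called lower in RN-L. Without RN-L 2010 the log2 fold-change was -1.86 with an adjusted p of 0.00945. The call was lost narrowly when RN-L 2013 or RN-S 2010 was left out, with adjusted p of 0.0538 and 0.0561.

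**Figure D2:**
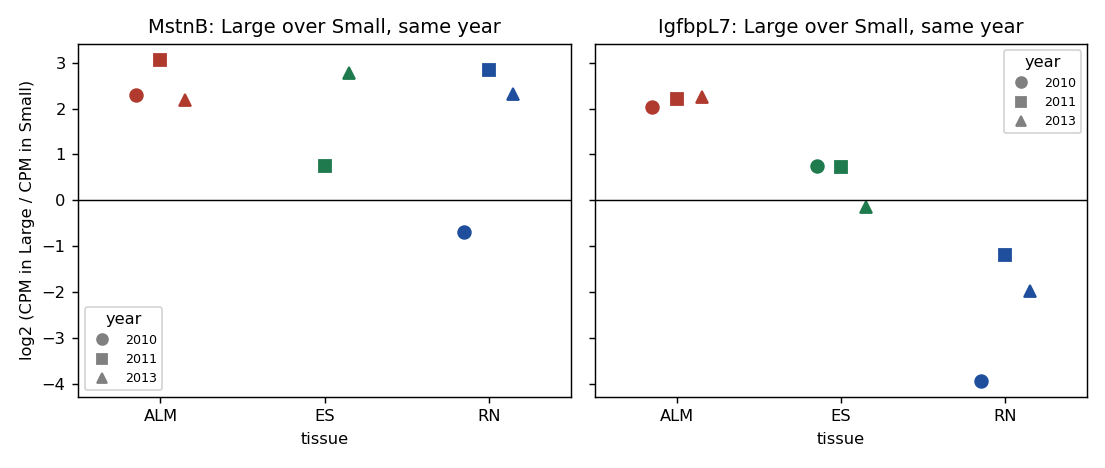
Ratio of the CPM in the Large pool to the CPM in the Small pool of the same year, on a log2 scale, for MstnB and IgfbpL7 in each tissue. MstnB in ES 2010 has no point because the Small pool had 0 counts. For IgfbpL7 the 3 ALM points lie between 2.03 and 2.26 and the 3 RN points between -3.94 and -1.19.

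Year by year, the ratio of the Large to the Small pool showed where the 2 genes parted. For IgfbpL7 the ratio in ALM was 4.08, 4.61 and 4.79 in 2010, 2011 and 2013. In RN it was 0.0654, 0.437 and 0.253, and in ES 1.68, 1.66 and 0.903. MstnB had ratios of 4.88, 8.34 and 4.54 in ALM, and of 0.622, 7.12 and 4.97 in RN. In ES its ratio was 1.68 in 2011 and 6.81 in 2013. IgfbpL7 was thus higher in Large pools of every year in ALM and lower in Large pools of every year in RN, whereas MstnB was higher in Large pools wherever a ratio could be formed except in RN 2010.

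The difference of the size effect between tissues was tested for RN against ES, whose counts did not define the genes. Results for both tissues were nevertheless known when the genes were chosen. For IgfbpL7 the log2 fold-change in RN was lower than in ES by 2.64 (difference -2.64, SE 0.57), and the difference was called (edgeR quasi-likelihood, 18 libraries, adjusted p = 0.0146). Of 39,511 features tested 4.13% were called for this difference, 1.72% with a higher and 2.41% with a lower size effect in RN. The call was lost without ES-S 2011, at an adjusted p of 0.0527, and without normalization factors, at 0.0515. For MstnB the difference was -0.45 (SE 1.03) and was not called (adjusted p = 0.882), and its sign turned when ES-S 2010 or RN-L 2010 was left out, giving 0.062 and 0.069. The difference of RN from ALM was -4.38 for IgfbpL7 and -0.35 for MstnB, and that of ALM from ES was 1.74 for IgfbpL7 and -0.10 for MstnB. These values involve ALM and have no test.

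The muscle and skeletogenic marker lists moved with the size groups in RN as IgfbpL7 did. All 10 of the linked muscle contractile genes were called lower in RN-L, with a median log2 fold-change of -3.36, beside 10.3% of all features called lower. Of the 13 linked skeletogenic genes, which encode proteins of the calcite skeleton, 12 were tested in RN, and 9 were called lower with a median of -3.68. All 7 linked synaptic genes went the other way and were called higher in RN-L, with a median of 3.02, beside 11.4% of all features called higher. These synaptic genes come from the table chosen on RN, as do several of the muscle genes. That choice largely fixed their calls in RN. The median over all features tested in RN was -0.04. The skeletogenic list summed to between 15.5 and 36.7 CPM in RN-L, with up to 4 of its genes at 0 in a library, against 137 to 362 CPM in RN-S. The part of these tissues in the RN result was not tested. In ALM the skeletogenic list summed to between 39.6 and 62.5 CPM in ALM-L, against 339 to 512 CPM in ALM-S, where IgfbpL7 was lower. The muscle list summed to between 24,690 and 31,821 CPM in ALM-L, against 45,063 to 61,704 CPM in ALM-S. Each RN-S pool had more IgfbpL7 than any ALM-S pool, 531 to 943 CPM in RN-S against 200.1 to 240 CPM in ALM-S. The muscle list was lower in every RN-S pool than in any ALM-S pool. The skeletogenic list had a median of 198 CPM in RN-S against 390 CPM in ALM-S. ALM counts chose IgfbpL7, and the skeletogenic genes come from the table chosen on ALM. These levels in ALM are therefore a description, and no cause of the IgfbpL7 levels in RN-S was tested. No muscle gene was at 0 in any library.

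**Figure D3:**
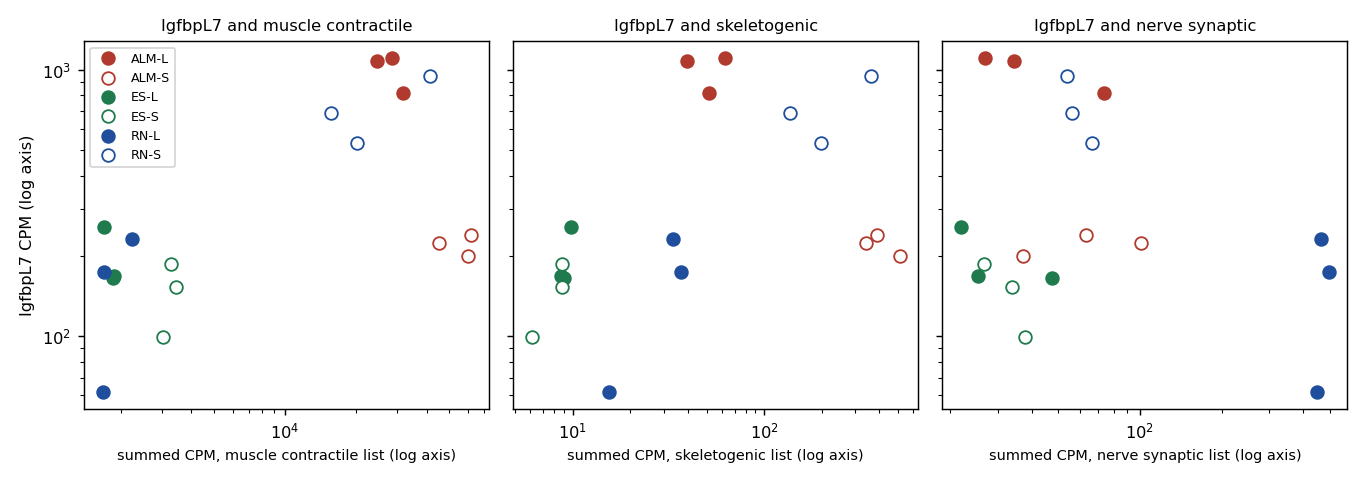
Level of IgfbpL7 against the summed level of the muscle contractile, skeletogenic and synaptic marker lists in each of the 18 libraries, all in CPM on log axes, with filled points for Large and open points for Small pools. RN-S lies with high muscle and skeletogenic sums and high IgfbpL7, and ALM-S with still higher muscle sums, skeletogenic sums that overlap those of RN-S, and IgfbpL7 of 200.1 to 240 CPM.

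The order of the group means differed between the genes. MstnB was ordered RN-L (6.76 CPM), ALM-L (5.08), RN-S (1.50), ES-L (1.45), ALM-S (0.872) and ES-S (0.218). Among neighbours in that order only ALM-L and RN-S, and ALM-S and ES-S, did not overlap, and the highest mean was 30.9-fold above the lowest. IgfbpL7 was ordered ALM-L (998 CPM), RN-S (721), ALM-S (221), ES-L (197), RN-L (156) and ES-S (146). Here RN-S and ALM-S were the only neighbours that did not overlap, and the highest mean was 6.82-fold above the lowest. The libraries of the 4 lower groups spanned 61.6 to 257 CPM, and all libraries of ALM-L and RN-S stood above them.

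Averaged over both sizes, both genes were higher in ALM than in ES. For MstnB the log2 difference of ALM from ES was 1.86 (SE 0.59), and for IgfbpL7 it was 1.47 (SE 0.29). No test is given for values that involve ALM, since ALM counts chose the genes. Between ALM and ES 40.2% of the 39,511 features were called, and 14.9% were called higher in ALM. For IgfbpL7 the difference came to 2.34 in the Large libraries and 0.60 in the Small libraries. Without normalization factors the values were 1.13 for MstnB and 0.79 for IgfbpL7, in a fit that also shifted the median of all features from -0.16 to -0.86.

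RN held more MstnB than ES, with a log2 difference of 2.45 (SE 0.57, adjusted p = 0.00208). It was called, beside 37.8% of features called between RN and ES, 16.3% of features being higher in RN. Taken by size within the fit to all 18 libraries, the values were 2.23 for Large (adjusted p = 0.0257) and 2.68 for Small pools (adjusted p = 0.0306). Both were called by edgeR's quasi-likelihood test. The Large pools of RN and ES still overlapped, with 0.722 CPM in RN-L 2010 below 1.77 CPM in ES-L 2010 and 1.95 CPM in ES-L 2013. For IgfbpL7 the average difference of 0.98 (SE 0.28) had an adjusted p of 0.00946 but fell short of the fold threshold. It joined unlike values, -0.34 in the Large libraries (adjusted p = 0.543) and 2.301 in the Small libraries (adjusted p = 0.000476), of which the second was called. Between RN and ALM, where 37.3% of features were called, the log2 difference was 0.59 for MstnB (SE 0.53) and -0.49 for IgfbpL7 (SE 0.28). For IgfbpL7 this average again joined opposite values, -2.68 in the Large and 1.70 in the Small libraries. These values, too, have no test.

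A list of 8 genes was drawn up around the TGF-beta, activin and BMP family and its regulators, of which 7 were linked to groupings. The list is loose, since it also holds Astacin2 and Rb1cc, described below, so its counts do not describe that family alone. The entries come from tables that the study chose on the size contrast of RN, ALM or ES, so their direction in the tissue of choice is not independent evidence. In RN, 4 of the 6 tested genes were called higher in RN-L and 1 lower, with a median log2 fold-change of 2.19, beside 11.4% of all features called higher and 10.3% lower. In ES 0 of the 5 tested genes were called by edgeR, with a median of 0.12 beside 0.06 over all features, while 1 had an unadjusted p under 0.05 and 1 was called by DESeq2.

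Fstl5, a follistatin-like secreted protein, averaged 2,268 ± 34.6 CPM in RN-L and 516 ± 54.9 CPM in RN-S, and it rose by 2.06 on the log2 scale (SE 0.24, adjusted p = 0.00247). In ES its values were 60.7 ± 12.2 CPM in ES-L and 58.8 ± 7.78 CPM in ES-S, and the difference of its size effect between RN and ES was called at 2.09 (adjusted p = 0.00401, edgeR quasi-likelihood). Fstl5 comes from the table chosen on RN, which favoured both calls. Evi1, a zinc finger protein that represses Smad signalling in mammals, rose by 3.49 in RN-L (adjusted p = 0.00199). The remaining called increases were those of Astacin2, an astacin family protease (2.66, adjusted p = 0.0304), and Rb1cc, whose mammalian namesake acts in autophagy (2.33, adjusted p = 0.00255). Astacin2 also had a fitted log2 fold-change of 3.15 in ES, where its levels varied widely, 608 ± 453 CPM in ES-L and 73.6 ± 56.7 CPM in ES-S, and did not pass the test (adjusted p = 0.470).

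Bmp1/TldL2, of the tolloid family of proteases, was the gene of the list that fell in RN-L (log2 fold-change -4.004, SE 0.76, adjusted p = 0.0101). It averaged 0.507 ± 0.451 CPM in RN-L and 8.15 ± 1.99 CPM in RN-S. In ALM it went the other way from MstnB, with 6.71 ± 3.83 CPM in ALM-L and 29.7 ± 6.58 CPM in ALM-S (log2 fold-change -2.18, no test). Tob, an antiproliferative protein, shared that direction in ALM at 20.4 ± 13.0 CPM in ALM-L and 75.3 ± 18.9 CPM in ALM-S, and in RN it had 185 ± 116 CPM in RN-L and 181 ± 44.3 CPM in RN-S with no call (adjusted p = 0.945). Postn, a matricellular protein, was too low to be tested in ES and RN.

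The insulin, IGF and nutrient list held 7 genes, of which 6 were linked, all 6 from the table chosen on RN. All 6 were called higher in RN-L, with a median log2 fold-change of 2.87, beside 11.4% of all features. Their choice on this contrast largely fixed that count, and nothing is read from it. In ES 0 were called by edgeR or DESeq2, where the median was -0.15 and 0 had an unadjusted p under 0.05. IgfbpL7 had the opposite direction in RN, but nothing is read from this either, since the choice of the list fixed its direction there. Slc38a9, a lysosomal arginine transporter that in mammals signals to mTORC1, averaged 8.18 ± 1.76 CPM in RN-L and 1.17 ± 0.195 CPM in RN-S and rose by 2.71 on the log2 scale (adjusted p = 0.0037, edgeR quasi-likelihood). CbpdEL_1, named after carboxypeptidases that trim peptide hormones, averaged 118 ± 32.5 CPM in RN-L and 27.8 ± 6.27 CPM in RN-S and rose by 2.002 (adjusted p = 0.00555). Kiaa1244L and Big3, both named after a protein that governs insulin granules in the mouse, rose by 4.10 (adjusted p = 0.00284) and 3.35 (adjusted p = 0.00525). The sorting nexins Snx19 and Snx26 rose by 3.03 (adjusted p = 0.0102) and 2.61 (adjusted p = 0.00534). The size effect differed between RN and ES for 3 of the 6, Kiaa1244L, Slc38a9 and Snx26, beside 1.72% of all features called with a higher size effect in RN. The choice of the list on its size effect in RN favoured these calls too, so they are not read as a result about the list.

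**Figure D4:**
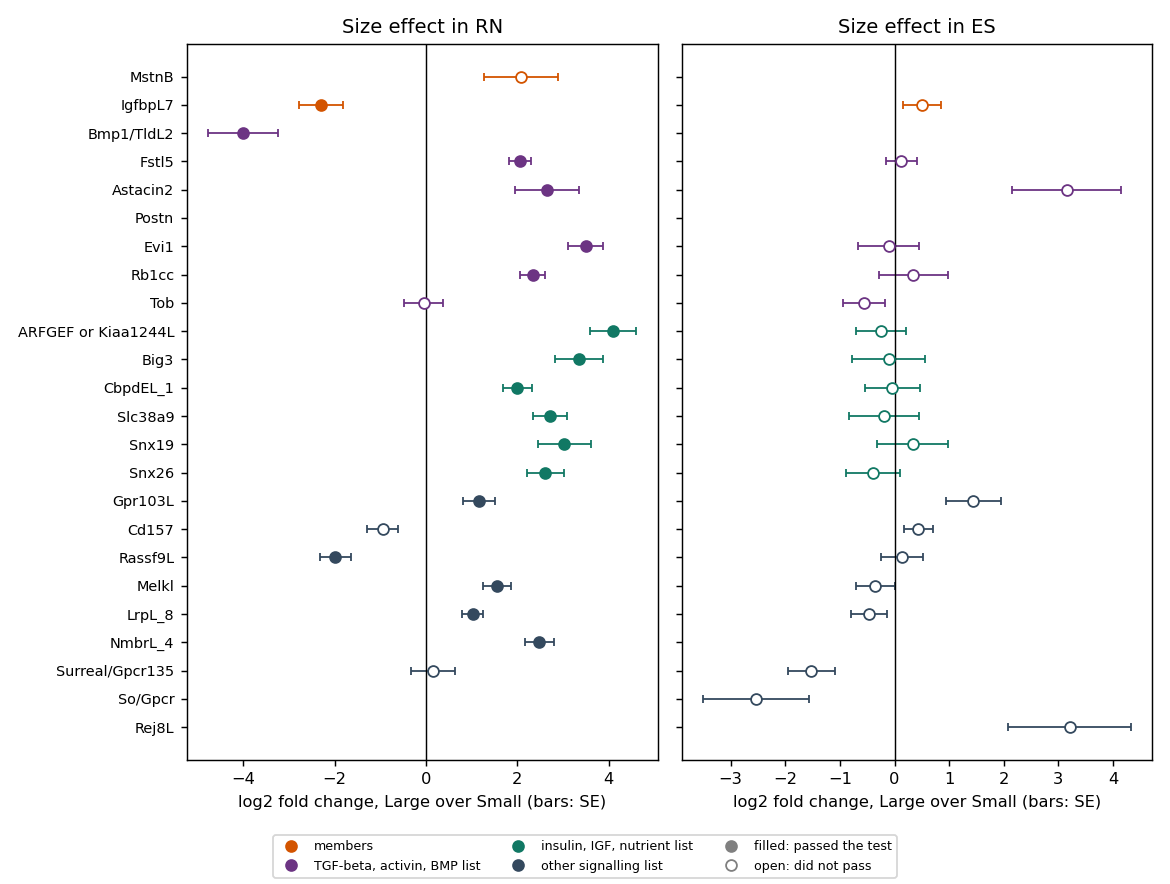
Fitted log2 fold-change between Large and Small pools in RN and in ES for the 2 genes, the TGF-beta, activin and BMP list, the insulin, IGF and nutrient list and other signalling genes of the ALM table. Bars are SE, filled points passed the test and open points did not, and genes with no point were under the count filter. In RN, the filled points on the negative side are IgfbpL7, Bmp1/TldL2 and Rassf9L, with Cd157 and Tob open on that side, and in ES all points are open.

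Of 10 further signalling genes of the table chosen on ALM, 9 were linked. In RN, 4 of the 7 tested were called higher in RN-L and 1 lower, with a median of 1.02, beside 11.4% of all features called higher and 10.3% lower. In ES 0 of the 8 tested were called by edgeR or DESeq2, while 4 had an unadjusted p under 0.05. Gpr103L, named after a neuropeptide receptor of vertebrates, had higher means in Large pools in all 3 tissues, as MstnB did. It had 3.28 ± 0.431 CPM in ALM-L and 0.514 ± 0.162 CPM in ALM-S, and 8.52 ± 0.840 CPM in RN-L and 3.58 ± 1.02 CPM in RN-S, where it rose by 1.17 (adjusted p = 0.0448). In ES it had 5.24 ± 0.973 CPM in ES-L and 2.04 ± 1.12 CPM in ES-S (log2 fold-change 1.44, adjusted p = 0.513). Cd157, an ADP-ribosyl cyclase, had the direction of IgfbpL7 in each tissue, with 27.9 ± 4.52 CPM in ALM-L and 9.97 ± 2.08 CPM in ALM-S, but in RN its 37.0 ± 13.6 CPM in RN-L and 67.7 ± 12.3 CPM in RN-S did not pass the test (log2 fold-change -0.95, adjusted p = 0.0739). Rassf9L, a Ras association domain protein, was the called decrease in RN at -1.99 (adjusted p = 0.0069). Melkl, a protein kinase, LrpL_8, of the LDL receptor-related family, and NmbrL_4, a neuropeptide receptor-like protein, rose in RN-L by 1.55, 1.02 and 2.48 on the log2 scale (adjusted p = 0.0112, 0.0181 and 0.00328).

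The features whose levels were most like each gene were ranked by Pearson correlation of log2 CPM over the 18 libraries, among 39,510 features. The libraries share pools and depth, so these correlations are a description. For MstnB the first was the unlinked grouping TRINITY_DN62292_c0_g1 (r = 0.871) and the second TRINITY_DN2810_c0_g2 (r = 0.858). The nearest linked genes were Pym1 (r = 0.772), a partner of the exon junction complex, Echn14 (r = 0.753) and Hnmtl (r = 0.736), named after histamine N-methyltransferase. For IgfbpL7 the first 2 were TRINITY_DN73059_c0_g3 (r = 0.890) and TRINITY_DN18815_c0_g1 (r = 0.888). The nearest linked genes were Fhod3 (r = 0.832), a formin of the muscle sarcomere in mammals, and the uncharacterized Hypp_748 (r = 0.826) and Hypp2811 (r = 0.812). Fhod3 averaged 17.7 CPM in ALM-L, 4.67 CPM in ALM-S, 3.69 CPM in RN-L and 11.3 CPM in RN-S, the same opposite order of sizes in ALM and RN as IgfbpL7. All 6 linked genes come from the table chosen on ALM, so a shared size effect in ALM is built in. Between MstnB and IgfbpL7 themselves r was 0.48 over 18 libraries, 0.98 over the 6 ALM libraries, 0.46 over the 6 ES libraries and -0.12 over the 6 RN libraries. Both genes were chosen by their ALM counts, so the value in ALM was built in, and it enters the value over 18 libraries.

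**Figure D5:**
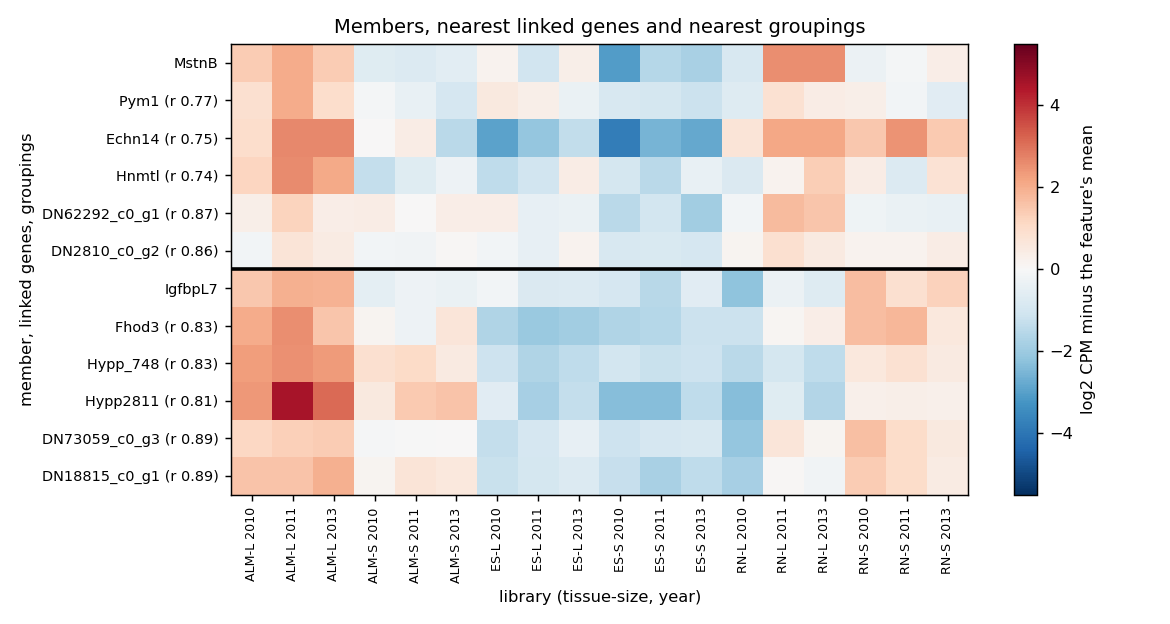
Levels of MstnB, IgfbpL7 and, for each, the 3 linked genes and 2 unlinked groupings most like it in the 18 libraries, as log2 CPM minus the mean of the feature, with Large pools left of Small pools in each tissue. The line separates the MstnB block from the IgfbpL7 block. The IgfbpL7 row is red in ALM-L and RN-S, which not all rows of its block share, and the MstnB row is deepest red in RN-L 2011 and 2013.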

How the data were processed

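RNA of Small and Large urchins was pooled by tissue, size and sampling year and sequenced by the authors. Counting by strand is not given in the sources used here, so antisense transcripts cannot be told apart. Per the labels and methods, the authors ran Trimmomatic 0.38 on the reads, built transcripts with Trinity, aligned to these with Bowtie2 2.3.4 and deposited RSEM's estimated counts for 127,198 Trinity groupings as whole numbers without normalization. RSEM divides reads among similar copies, so paralogs are uncertain. Groups came from the sample titles.

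Groupings were linked to SPU genes where their counts, alone or as a pair, equalled those printed for 6 libraries. Failing that, a single grouping holding at least 95% of the printed counts was accepted. This linked 891 genes (pairs summed) and needs no annotation. edgeR 4.0.16 (R 4.3.3) was run on the counts with TMM, filterByExpr, quasi-likelihood F-tests and Benjamini-Hochberg adjustment over all features, within each tissue for size and over 18 libraries for tissues and interactions. Contrasts of a member between ALM and another tissue were fitted in the same way but are given as values, since ALM counts chose the members. Calls needed an adjusted p under 0.05 and more than a 2-fold change. DESeq2 1.42.0 was an alternative. Standard errors were taken from the log2 fold-change and the F statistic. With 3 libraries against 3 an exact permutation test cannot go below p = 0.1. P-values measure the spread between yearly pools. The tests were checked on simulated data.

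Same-pool tissues come from the same animals, which pairs them in tissue contrasts by design. Correlations of their deviations ran from -0.38 to 0.36. Sampling year does not pair sizes (-0.43 to 0.26). Genes named are the members, 3 lists of signalling genes, other groupings of a member's component and, for each member, the 3 linked genes and 2 unlinked groupings most like it. The members and lists were chosen with earlier results of these data known. Intervals cover counting error only.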

Additional observations from a re-analysis of the deposited data

Results flagged for a closer look

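IgfbpL7 had a size effect in RN that was lower than its size effect in ES by a log2 difference of -2.64, and this difference passed the interaction test (edgeR quasi-likelihood, adjusted p = 0.0146). It no longer passed without normalization factors (adjusted p = 0.0515) or without ES-S 2011 (adjusted p = 0.0527). The part of the library series and of the muscle and skeletogenic transcripts in RN-S was not tested. The size effect of IgfbpL7 in RN and in ALM had opposite directions in 3 of 3 years, the RN years being those of the titles where another label gives 2010 for all 6, with a log2 difference of -4.38 that was not tested because ALM was used to choose the gene.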

How the results depend on the processing

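Of 282 alternatives for values of the 2 genes, 258 kept the direction and the side of the threshold (or, without a test, moved by less than the spread between replicates), and the cause of each change below was not tested. The size effect of MstnB in RN passed without the filter on low counts (2.13) and with DESeq2 (2.13), and with 1 library left out it ran from 1.80 to 2.67, passing only without RN-L 2010. The size effect of IgfbpL7 in RN ran from -2.63 to -1.86 and was lost without RN-L 2013 or RN-S 2010. The difference of the size effect between RN and ES ran from -3.04 to -2.26 for IgfbpL7, lost without ES-S 2011, and from -1.03 to 0.069 for MstnB, with the sign turned without ES-S 2010 (0.062) or RN-L 2010 (0.069). Without normalization factors, which shifted the median of all features from -0.16 to -0.86 for ALM minus ES and from 0.10 to 0.83 for RN minus ALM, the IgfbpL7 difference of the size effect was -2.31 (adjusted p = 0.0515), ALM minus ES was 1.13 for MstnB and 0.79 for IgfbpL7, RN minus ES of IgfbpL7 was 1.08 and called, and RN minus ALM was 1.41 for MstnB and turned to 0.28 for IgfbpL7. The Large groups and the Small groups were also contrasted separately within the fit to all 18 libraries. For Large and Small in turn, IgfbpL7 gave 2.34 and 0.60 for ALM minus ES, -0.34 and 2.301 for RN minus ES, and -2.68 and 1.70 for RN minus ALM. RN minus ES of IgfbpL7 ran from 0.79 to 1.18 with 1 library left out, called without ES-L 2010, ES-S 2013, RN-L 2010 or RN-S 2011.

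Counts of features called by size in ES were 1 in the main test, 0 without normalization factors, 1,767 without the filter, 372 with DESeq2, 40 in the fit to 18 libraries and 0 to 886 with 1 library left out (886 without ES-L 2010), and 2,438 features had an unadjusted p under 0.05. In RN they were 6,287, and 9,528 without the filter, and 2,376 (without RN-S 2010) to 6,654 (without RN-L 2010) with 1 library left out. Without normalization factors 77.5% of those called by size in RN were higher in RN-L against 52.6% in the main test, 15.5% of those called between ALM and ES were higher in ALM against 37.1%, and 84.1% of those called between RN and ALM were higher in RN against 55.8%. For the difference of RN from ES the counts were 1,633, then 915 without normalization factors, 3,078 with DESeq2 and 688 (without ES-S 2011) to 1,811 (without ES-L 2010). Within the fit to 18 libraries, the contrast of the Large groups gave 10,456 features for ALM minus ES against 15,893. The contrast of the Small groups gave 5,725 for RN minus ALM against 14,745.

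With sampling year as a replicate block, which the labels share but which does not pair the sizes, 3,814 features were called by size in RN and 0 in ES, the size effect of IgfbpL7 in RN was -2.42 (adjusted p = 0.0385) and that of MstnB 1.60 (adjusted p = 0.187). With the pool of animals as a replicate block, the difference of RN from ES was -2.78 for IgfbpL7 (adjusted p = 0.0222), and it changed no call of either gene. MstnB had 0 to 136 counts per library, and 0 to 26 in ES, where it was under the count filter.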
